A study of Mus musculus with 8 samples.

Results

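The genes described here encode the proteins of the cytosolic ribosome. They were chosen by symbol, as the rows of the count table whose gene symbol is that of a large subunit protein (Rpl and a number, Rplp0, Rplp1 and Rplp2) or of a small subunit protein (Rps and a number, Rpsa), with pseudogenes left out. The rule found 77 of the 24573 genes in the table, 46 of the large and 31 of the small subunit, and all 77 passed the filter on low counts. The rule uses no measured value. RNA had been sequenced from C2C12 cells, a mouse myoblast line kept proliferating at low density. The cells carried lentiviral short hairpin RNAs (shRNAs) against Brd9, against Baf250A (the product of Arid1a), against Baf180 (the product of Pbrm1) or with a scrambled control sequence. Cells of all 4 groups, scramble included, had been transduced with lentivirus and selected and kept in puromycin. Each group had 2 libraries, and the labels do not say whether the pair came from different cultures or how many hairpins were used. Every p-value below therefore reflects library-to-library spread that could be purely technical. Both libraries of a knockdown share a code in their titles. The labels do not say what the code means, so each knockdown may rest on a single hairpin.

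A ribosome holds a single copy of most of its proteins, so their messenger RNAs are among the most abundant of a growing cell and are made at similar levels. The transcripts begin with a tract of pyrimidines, the TOP tract, through which mTOR signalling and Larp1 control their translation, and their promoters are short and usually lack a TATA box. Brd9, Baf250A and Baf180 are subunits of 3 different forms of the SWI/SNF family of chromatin remodellers, named non-canonical BAF, canonical BAF and PBAF. Ribosomal proteins that are made in excess of ribosomal RNA, above all Rpl5 and Rpl11, can bind Mdm2 and stabilise p53.

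Runs of pyrimidines can be read in the sequence around the start of these genes. The stretches below are those of 6 members that were lower in the Brd9 or the Baf180 knockdown, and they are shown because their runs range from short to long. They come from RefSeq on GRCm38.p6, the assembly that mm10 also denotes, and run 5′ to 3′ on the gene's strand from 60 bases before the annotated start to the first 20 bases of the transcript. Capitals mark the longest unbroken run of C or T from 20 bases before the start to the end of the printed stretch, and the first of them where runs are equally long, as in Rps7.
Rpsa chr9:120127706-120127785 plus strand: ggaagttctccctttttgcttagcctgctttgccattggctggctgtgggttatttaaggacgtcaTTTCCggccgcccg
Rpl7a chr2:26910747-26910826 plus strand: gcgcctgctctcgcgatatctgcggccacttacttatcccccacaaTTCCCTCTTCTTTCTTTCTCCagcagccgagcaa
Rps6 chr4:86857348-86857427 minus strand: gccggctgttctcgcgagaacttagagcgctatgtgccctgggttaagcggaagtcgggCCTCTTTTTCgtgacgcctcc
Rps7 chr12:28635934-28636013 minus strand: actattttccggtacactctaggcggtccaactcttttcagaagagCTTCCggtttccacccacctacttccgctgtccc
Rpl12 chr2:32961652-32961731 plus strand: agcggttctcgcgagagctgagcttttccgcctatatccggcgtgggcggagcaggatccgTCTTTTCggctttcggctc
Rpl4 chr9:64173327-64173406 plus strand: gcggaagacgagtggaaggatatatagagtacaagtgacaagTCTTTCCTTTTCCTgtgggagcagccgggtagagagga
The run is 21 bases long in Rpl7a, 14 in Rpl4, 10 in Rps6, 7 in Rpl12 and 5 in both Rpsa and Rps7. In Rps7 and Rpl4 it ends before the annotated start, and in Rpsa and Rpl12 it begins after the first base of the transcript. A marked run is therefore not always a tract at the annotated first base. RefSeq windows, from 250 bases before to 50 after a start, were found for 57 of the 77 members, with 67 windows, and were set beside all 32851 windows of the table. A run of at least 8 bases that are each C or T, between 20 bases before and 30 after the start, was found in 49.3% of the members' windows and in 19.0% of all windows. A run of at least 10 such bases was found in 35.8% and 8.77%. Searched on both strands of the whole window, CCGGAAG, the core bound by ETS factors, was found in 37.3% of the members' windows and 8.86% of all windows. The letters AAGATGGC, bound by YY1, were found in 10.4% and 2.75%, and CACGTG, the E-box bound by Myc, in 11.9% and 7.15%. TATAAA was found in 8.96% of the members' windows and 13.6% of all windows. The motifs can share letters with each other and with the runs, and a match is a description of letters, not a measured binding site.

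The libraries held 17763062 to 20400855 estimated counts. TMM factors, which scale libraries by the bulk of their genes, ran from 0.846 (Baf180 library 1) to 1.12 (Brd9 library 1). Genes with a count numbered 14195 to 14768 in 7 libraries and 16402 in scramble library 2. Brd9 had 157 and 135 counts in the Brd9 libraries against 717 and 637 in the scramble libraries. Arid1a had 1335 and 1243 counts in the Baf250A libraries against 2834 and 2720 in scramble, and Pbrm1 had 65 and 86 counts in the Baf180 libraries against 876 and 969 in scramble. The myoblast genes Myod1, Myf5, Des and Cdh15 were present in every library, Pax7 had 4 to 266 counts, and Myf6 had at most 4 counts. Of the 5 myoblast genes tested, Pax7 rose in Brd9 knockdown, Pax7, Cdh15 and Myf5 fell in Baf250A knockdown, and in Baf180 knockdown Myf5 fell and the other 4 rose, a shift whose part in the results below was not tested. The endothelial Pecam1 and Cdh5, the leukocyte gene Ptprc, the epithelial Epcam, Krt8 and Krt18 and the adipocyte gene Adipoq had 0 to 8 counts in any library, and the macrophage gene Cd68 had 29 to 45.

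The members were expressed far above most genes. Their median over the 8 libraries was 862 CPM (counts per 1000000 counts of the TMM-scaled library), against 26.3 CPM over all genes tested. Per kilobase of the gene length given in the table, which allows levels of different genes to be compared, the medians were 1035 and 8.56 CPM per kb. Rpl41, which encodes the shortest ribosomal protein, and Rps2, a protein of the messenger RNA entry site, were the highest at 4182 and 4172 CPM per kb. Rplp0, the base of the acidic stalk, followed at 2915. Rpl26 and Rps15a were the lowest at 13.8 and 53.3 CPM per kb. The value for Rps15a rests on a listed length of 5158 bases, against a median of 734 for the members.

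Rpl26 needs a separate reading, because a near copy of it has a row of its own. Its row held 89 to 190 counts per library, while the row of Gm15772, annotated as a transcribed pseudogene, held 9352 to 13763. Of the 31-base words of the Rpl26 transcripts, 69.8% also occur in Gm15772. Together Rpl26 and Gm15772 had 466 and 616 CPM with Brd9 shRNA, 674 and 668 with Baf250A shRNA and 565 and 515 with Baf180 shRNA, against 784 and 714 in scramble. The sum was thus at the level of other members, and the Brd9, Baf250A and Baf180 libraries were all below both scramble libraries. At least 10% of such words were also shared by Rps27 and Rps27rt (55.7%), Rpl14 and Rpl14-ps1 (54.3%), Rplp2 and Wdr89 (36.2%), Rps2 and Gm10653 (25.4%), Rps19 and Rps19-ps3 (23.7%), Rps23 and Gm8624 (19.7%), Rpl29 and Gm8580 (15.9%) and Rpl7a and Gm5766 (13.8%). The counts of these genes are uncertain to the extent that reads were divided, although each of those other rows held fewer reads than its partner.

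The members took a smaller share of all counts in each knockdown than in scramble. The share was 6.04% and 6.81% with Brd9 shRNA, 7.43% and 7.17% with Baf250A shRNA and 7.18% and 6.65% with Baf180 shRNA, against 7.98% and 8.17% with scramble. All 6 knockdown libraries were thus below both scramble libraries. These shares are of total counts without TMM scaling, and their order depends on that for Baf180 library 1, whose TMM factor was 0.846. With TMM scaling its median member stood 0.21 above its own mean over the libraries on the log2 scale, against 0.23 and 0.19 in scramble. The means were 6.42% ± 0.544 for Brd9, 7.30% ± 0.184 for Baf250A and 6.92% ± 0.375 for Baf180, against 8.07% ± 0.134 for scramble (SD, n = 2 each). An exact two-sided permutation test of each knockdown against scramble gave p = 0.333, the smallest that 2 against 2 libraries allow. In RNA from bulk cells, fewer cells of a kind and less RNA per cell cannot be told apart.

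Within a group the libraries did not all stand together. Relative to its own mean over the 8 libraries, on the log2(CPM + 0.5) scale, the median member stood at -0.38 and -0.11 with Brd9 shRNA, -0.0145 and -0.0352 with Baf250A shRNA and 0.21 and -0.0716 with Baf180 shRNA, against 0.23 and 0.19 with scramble. Brd9 library 1 was the lowest, with none of the 77 members above its own mean, and Brd9 library 2 had 8. Baf180 library 1 was split. Its members ran from -0.58 to 0.68, with 50 above their mean, whereas 19 were above in Baf180 library 2. The difference between library 1 and library 2 had a median of -0.28 over the members in Brd9, 0.0483 in Baf250A, 0.19 in Baf180 and 0.0146 in scramble. The Brd9 group had the lowest mean for 62 of the 77 members, Baf180 for 13 and Baf250A for 2, while scramble had the highest mean for 36, Baf180 for 21 and Baf250A for 20.

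**Figure D1:**
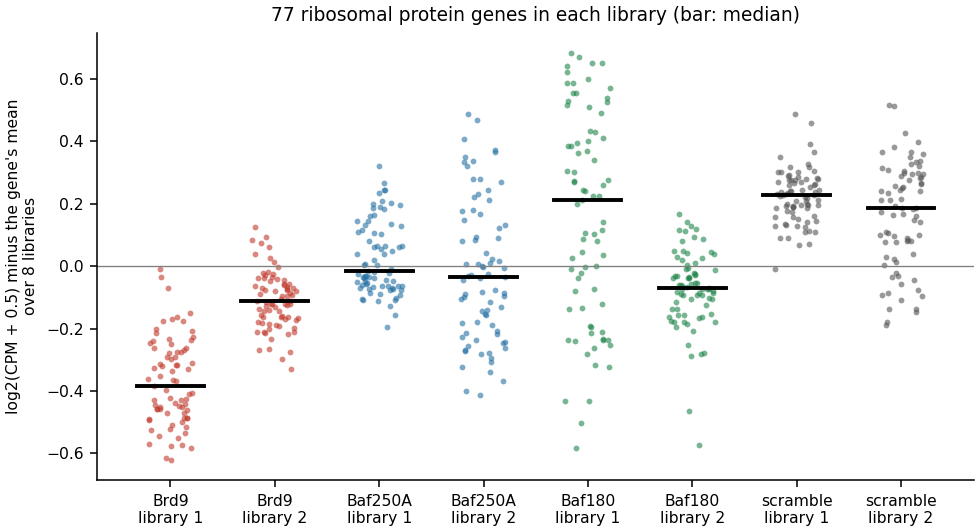
Each point is one of the 77 ribosomal protein genes in one library, with log2(CPM + 0.5) minus the gene's mean over 8 libraries on the vertical axis and the libraries, coloured by group, along the horizontal axis; black bars are medians. Brd9 library 1 has the lowest median at -0.38, the scramble libraries stand at 0.23 and 0.19, and Baf180 library 1 spreads from -0.58 to 0.68.

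In Brd9 knockdown every member had a negative log2 fold change against scramble. Of the 77, 12 fell and none rose at an adjusted p below 0.05 in edgeR's quasi-likelihood test, with p-values adjusted by Benjamini-Hochberg over all 12420 genes. Over all genes tested, 3.57% were called lower and 6.45% higher. At an unadjusted p below 0.05, 53 members were lower and none higher, against 13.7% and 16.7% of all genes. The median log2 fold change of the members was -0.46, against 0.036 for all genes, with -0.46 for the large subunit and -0.44 for the small subunit, and each subunit held 6 of the 12 calls. In 63 members both Brd9 libraries were below both scramble libraries, and in none were both above; over all genes these shares were 31.2% and 33.8%.

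Rpsa, a small subunit protein also known as the laminin receptor, had the lowest p. It had 2581 and 3006 CPM in the Brd9 libraries against 4295 and 5082 in scramble (log2 fold change -0.75, SE 0.15, adjusted p = 0.0165, edgeR). The groups did not overlap, and the gap between them was wider than the gap within either. Rpl7a, a large subunit protein whose introns hold small nucleolar RNAs, had 979.5 and 1038 CPM in the Brd9 libraries against 1506 and 1589.5 in scramble (log2 fold change -0.62, SE 0.13, adjusted p = 0.0181). Rps13 had 325 and 382 CPM against 535 and 552 (log2 fold change -0.62, SE 0.13, adjusted p = 0.0215). In both genes the Brd9 libraries were below both scramble libraries.

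Rps7, a small subunit protein that can bind Mdm2, had 666 and 723 CPM in the Brd9 libraries against 991 and 1003 in scramble (log2 fold change -0.52, SE 0.12, adjusted p = 0.0276, edgeR). Rps6, the substrate of the S6 kinases that act below mTOR, had 1058 and 1280.2 CPM against 1686 and 1776 (log2 fold change -0.57, SE 0.14, adjusted p = 0.0338). The scramble libraries were the higher pair in both. Rps12, Rpl29, Rpl26, Rpl12, Rps2 and Rpl14 also fell, with log2 fold changes of -0.47 (Rpl12) to -0.92 (Rpl26). Rps2 had 2923 and 3526 CPM against 4737 and 5226. The row of Rpl26 had 4.70 and 6.70 CPM against 10.7 and 10.9, and its near copy Gm15772 was not called (log2 fold change -0.46, adjusted p = 0.0843).

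Several abundant members had large differences without passing the test. Rplp0, the stalk protein to which Rplp1 and Rplp2 attach, had 2635 and 3369 CPM in the Brd9 libraries against 4524 and 5063 in scramble (log2 fold change -0.68, SE 0.20, adjusted p = 0.0591, edgeR). Its partners were Rplp1 (log2 fold change -0.60, adjusted p = 0.0584) and Rplp2 (log2 fold change -0.57, adjusted p = 0.122). Rpl41 had 1322 and 1773 CPM against 2439 and 2658 (log2 fold change -0.72, SE 0.26, adjusted p = 0.103). The 2 Brd9 libraries of Rpl41 and Rplp0 lay far apart, and all of these were still below both scramble libraries. Rpl3, which lines the peptidyl transferase centre, had 1386 and 1709.7 CPM against 2136 and 2154, with a log2 fold change of -0.47, adjusted p = 0.106. Rpl10, a protein added at the last step of large subunit maturation, had 1029 and 1099.9 CPM against 1428 and 1439 and missed the threshold narrowly, with a log2 fold change of -0.43, adjusted p = 0.0561. Rps4x, the X-linked form of a small subunit protein, had 875 and 1082 CPM against 1299 and 1304, with a log2 fold change of -0.41, adjusted p = 0.0877.

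Members with roles outside the ribosome or in human disease lay along the same range. Rps14, lost with part of a chromosome in a human myelodysplastic syndrome, had 606 and 743 CPM in the Brd9 libraries against 950.3 and 960.3 in scramble (log2 fold change -0.50, adjusted p = 0.132). Rps19, mutated in human Diamond-Blackfan anaemia, had 292 and 376 CPM against 454 and 452 (log2 fold change -0.44, adjusted p = 0.159). Rpl11 and Rpl5, the partners of Mdm2, had smaller differences. Rpl11 had 566 and 676 CPM against 777 and 761 (log2 fold change -0.31, adjusted p = 0.188), and Rpl5 had 638 and 688 CPM against 839 and 759 (log2 fold change -0.27, adjusted p = 0.203). These 4 genes had no overlap between the groups and none passed the test. Small differences were those of Rpl23, at 529.6 and 511 CPM against 586 and 494 (log2 fold change -0.053), and of Rps27a, a fusion of ubiquitin with a ribosomal protein, at 253 and 242 CPM against 278 and 239 (log2 fold change -0.065). In both the groups overlapped, and the sign turned positive, to 0.12 for Rpl23 and 0.11 for Rps27a, when libraries were scaled by their totals alone. That scaling also raised the median of all genes in this comparison, from 0.036 to 0.21. Rpl22 (-0.22), Rpl38 (-0.17), known for its part in the translation of Hox messages, Rpl39 (-0.23) and Rps27 (-0.17) also had log2 fold changes within 1.5 SE of 0, given in brackets, as did Rpl7, Rps15a, Rpl31, Rpl36a, Rpl23a, Rpl37a and Rps24.

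**Figure D2:**
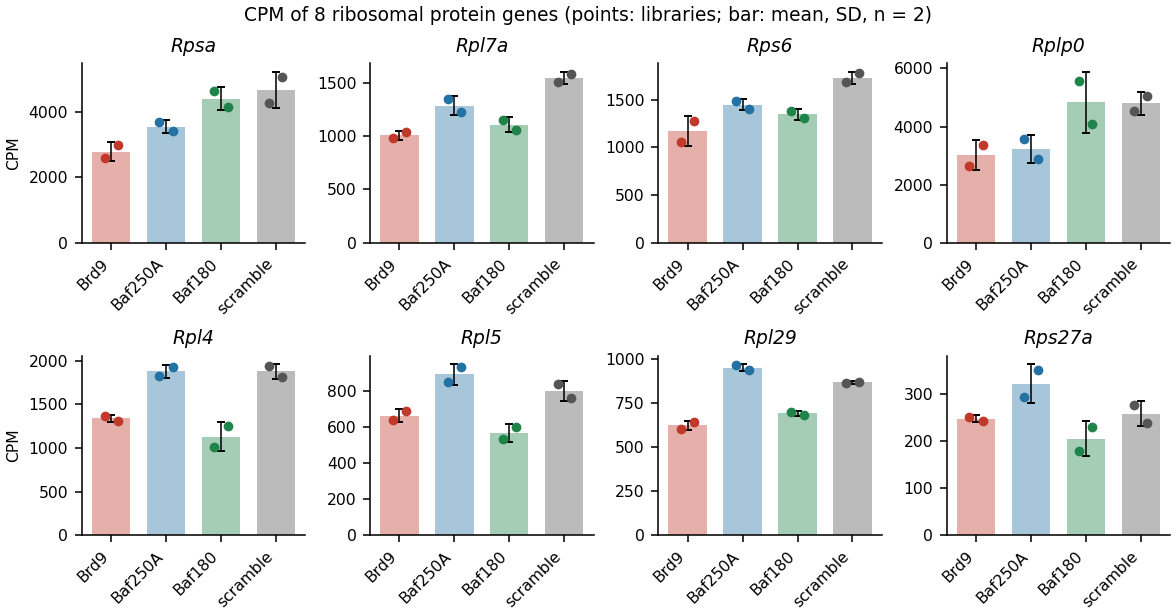
CPM on the vertical axis, from 0, for 8 members in the Brd9, Baf250A, Baf180 and scramble groups; points are the 2 libraries of a group, bars their mean and lines the SD (n = 2). In Rpsa and Rpl7a both Brd9 libraries stand below both scramble libraries, in Rpl4 and Rpl5 the Baf180 libraries are the lowest, and in Rpl29 and Rps27a the Baf250A libraries are the highest.

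The number of calls in Brd9 knockdown depended on single libraries. It was 0 without scramble library 1, without scramble library 2 or without Brd9 library 1, 12 without Brd9 library 2, 7 without Baf250A library 1 and 26 without either Baf180 library, while the median of the members was -0.28 without Brd9 library 1 and -0.56 without Brd9 library 2. With offsets that remove each library's trend along GC content and gene length, 34 members were called lower and none higher, against 13.9% and 14.4% of all genes, and the median was -0.31.

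In Baf250A knockdown no member was called in edgeR, although 15.5% of all genes were called higher and 14.0% lower. At an unadjusted p below 0.05, 1 member was higher and 10 were lower, against 23.2% and 21.3% of all genes, and DESeq2 called 2 lower and none higher. The median log2 fold change was -0.25, against -0.018 for all genes, with 20 members above 0 and 57 below. Both Baf250A libraries were below both scramble libraries in 52 members and above both in 12; over all genes these shares were 39.5% and 36.3%.

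The members of this comparison ran from Rpl41 to Rpl30. Rpl41 had 1798 and 1570.5 CPM in the Baf250A libraries against 2439 and 2658 in scramble (log2 fold change -0.60, SE 0.26, adjusted p = 0.105, edgeR). Rpl30 had 545 and 649.6 CPM against 501 and 434 (log2 fold change 0.35, SE 0.15, adjusted p = 0.0932). In Rpl41 the Baf250A libraries were both lower and in Rpl30 both higher, and neither difference passed the test. Rplp0 and Rpsa lay toward the low end, with Rplp0 at 3557 and 2885 CPM in the Baf250A libraries against 4524 and 5063 in scramble, and Rpsa at 3692 and 3416 against 4295 and 5082. Rps27a had 294 and 352 CPM in the Baf250A libraries against 278 and 239 in scramble, and Rpl5 had 851 and 930.5 against 839 and 759. Both Baf250A libraries were the higher pair in these 2 genes. Rpl4, a large subunit protein that lines the exit tunnel, had 1825 and 1932 CPM in the Baf250A libraries against 1934 and 1819 in scramble, and these overlapped. Leaving out Baf250A library 1 gave 1 call, and leaving out either Baf180 library gave 7. With the GC and length offsets 4 members were called higher (Rpl29, Rpl30, Rpl34 and Rps29) and 3 lower (Rps20, Rpl15 and Rps26), against 17.5% and 18.0% of all genes, and the median was -0.10.

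In Baf180 knockdown 8 members fell and none rose, against 17.0% of all genes called lower and 17.2% called higher, so both shares of the members were below those of all genes. The count at an unadjusted p below 0.05 was 14 lower and 0 higher, against 23.8% and 23.0% of all genes. The median was -0.11, against -0.021 for all genes, with 55 members below 0 and 22 above, and 7 of the 8 that fell belonged to the large subunit. That subunit holds 46 of the 77 members, and its median was -0.10, against -0.11 for the small subunit. With the GC and length offsets 15 of the 46 large and 13 of the 31 small subunit members were called lower, against 18.8% of all genes. Both Baf180 libraries were below both scramble libraries in 29 members and above both in 1; over all genes these shares were 37.1% and 35.0%.

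Rpl4 had the lowest p, at 1012 and 1248 CPM in the Baf180 libraries against 1934 and 1819 in scramble (log2 fold change -0.73, SE 0.14, adjusted p = 0.00562, edgeR). Rps7 had 691 and 728 CPM against 991 and 1003 (log2 fold change -0.49, SE 0.12, adjusted p = 0.0143), and Rpl7a had 1156 and 1057 against 1506 and 1589.5 (log2 fold change -0.48, SE 0.13, adjusted p = 0.0188). In all 3 the Baf180 libraries were both below the scramble libraries. Rpl5, which carries the 5S ribosomal RNA into the large subunit together with Rpl11, had 532 and 602 CPM against 839 and 759 (log2 fold change -0.49, SE 0.13, adjusted p = 0.0204). Rpl17, a protein of the exit tunnel, had 743 and 818 CPM against 1270.2 and 1074 (log2 fold change -0.59, SE 0.16, adjusted p = 0.0228). The row of Rpl26 had 6.26 and 4.86 CPM against 10.7 and 10.9 (log2 fold change -0.95, SE 0.24, adjusted p = 0.0149), and its near copy Gm15772 was also called lower (log2 fold change -0.47, SE 0.15, adjusted p = 0.0429). The remaining pair were Rpl12, which sits at the base of the stalk (log2 fold change -0.44, adjusted p = 0.0237), and Rpl6 (log2 fold change -0.44, adjusted p = 0.0295).

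Of these 8, Rps7, Rpl7a, Rpl12 and Rpl26 had also been called in Brd9 knockdown, a comparison that uses the same scramble libraries. Rpl5 and Rpl4 were called lower in Baf180 and not in Brd9 knockdown, where their log2 fold changes were -0.27 and -0.49, and Rpsa was called in Brd9 and not in Baf180 knockdown, where it had 4659 and 4166 CPM against 4295 and 5082. At the other end, Rpl37a had 598 and 432 CPM in the Baf180 libraries against 426 and 385 in scramble (log2 fold change 0.34, SE 0.18, adjusted p = 0.165). Its Baf180 library 1 was far above library 2, and both were above scramble. Rplp0 had 5582 and 4099.9 CPM in the Baf180 libraries against 4524 and 5063 in scramble, and Rps2 had 5528 and 4453 against 4737 and 5226. The groups overlapped in both.

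The count of 8 fell to 0 without scramble library 1, to 1 without scramble library 2 and to 4 without Baf180 library 1. The median was -0.24 without Baf180 library 1 and -0.0107 without Baf180 library 2. With the GC and length offsets 28 members were called lower and 4 higher, against 18.8% and 19.5% of all genes, and the median was -0.21. Of the 8 members above, 6 were still called, Rpl17 was not, and the log2 fold change of Rpl5 turned to 0.11.

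**Figure D3:**
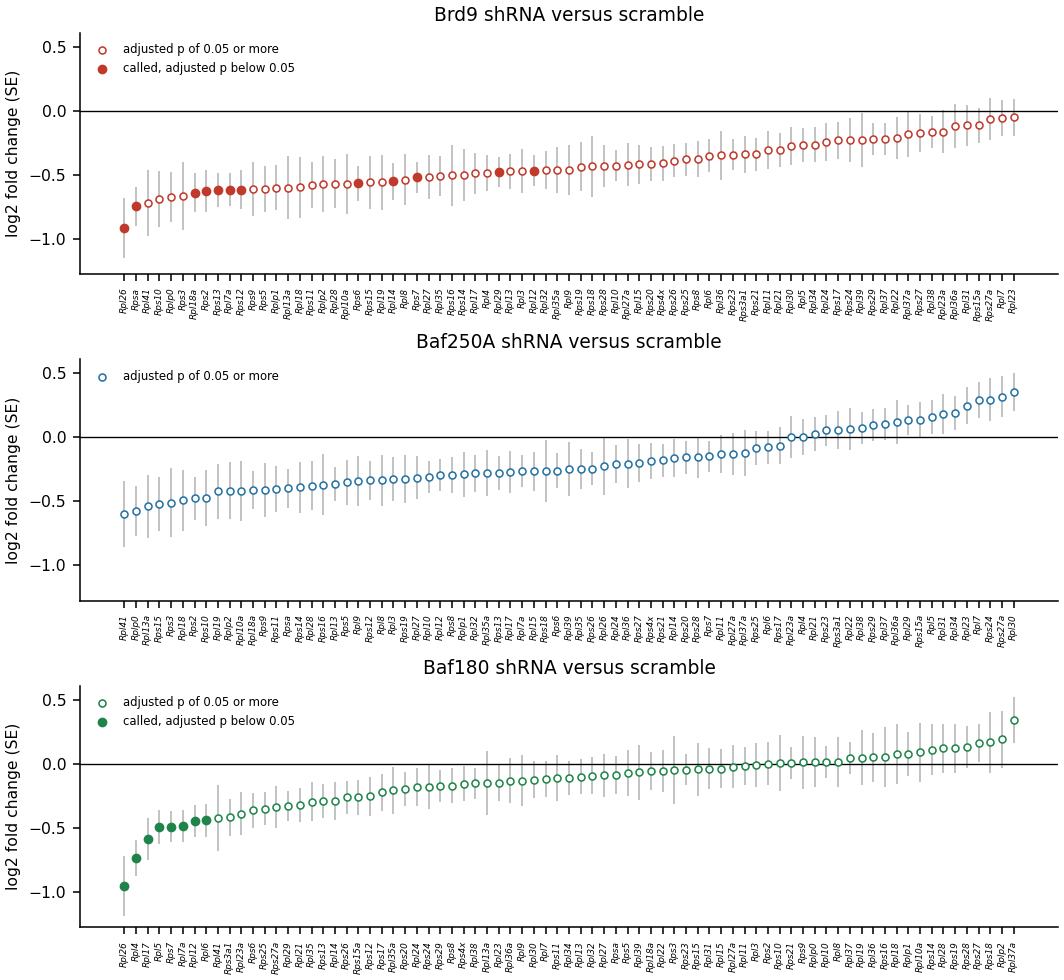
The 77 members sorted along the horizontal axis by log2 fold change against scramble, on the vertical axis with its SE, for the Brd9, Baf250A and Baf180 knockdowns; filled points are called at an adjusted p below 0.05. All 77 points of the Brd9 panel are below 0 and 12 are filled, the Baf250A panel has none filled, and the Baf180 panel has 8.

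Setting the knockdowns against each other uses no scramble library for the fold change. Against Brd9, Baf250A knockdown had 7 members higher and none lower, against 10.0% of all genes called higher and 15.0% lower, with a median of 0.22. Both shares of the members were thus below those of all genes, only slightly so for the higher calls. The count of 7 therefore does not set the members apart from other genes. Rpl29 had 964 and 938 CPM in the Baf250A libraries against 604 and 642 in the Brd9 libraries (log2 fold change 0.61, SE 0.12, adjusted p = 0.00607, edgeR). Rpl30 had 545 and 649.6 CPM against 395 and 377 (log2 fold change 0.63, SE 0.15, adjusted p = 0.0142). Neither gene's groups overlapped, and Rpl29 was called in each of the 8 fits that left out a library. The other 5, with their log2 fold changes in brackets, were Rpl4 (0.49), Rpl34 (0.46), Rps23 (0.40), Rpl5 (0.43) and Rps7 (0.37). The count was 2 without scramble library 1, without scramble library 2 or without Brd9 library 1, 4 without Brd9 library 2, 3 without Baf250A library 1 and 1 without Baf250A library 2, and the median was 0.41 without Brd9 library 2 and 0.12 without Brd9 library 1. Rps27 had the lowest log2 fold change of all, -0.028, which was 0.0195 with RLE scaling and with DESeq2, and the row of Rpl26 had the highest, 0.69, adjusted p = 0.0572.

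Baf250A against Baf180 had members called in both directions. Of the 77, 14 were higher and 6 lower in Baf250A knockdown, against 30.8% and 31.7% of all genes, with a median of -0.11. Both shares of the members were thus below those of all genes. Rpl4 had 1825 and 1932 CPM in the Baf250A libraries against 1012 and 1248 in the Baf180 libraries (log2 fold change 0.73, SE 0.14, adjusted p = 0.00181, edgeR). Rpl5 had 851 and 930.5 CPM against 532 and 602 (log2 fold change 0.65, SE 0.13, adjusted p = 0.00247), and Rps27a had 294 and 352 against 179 and 231 (log2 fold change 0.65, SE 0.16, adjusted p = 0.00685). None of these 3 genes overlapped between the groups. Rpl29 (0.46), Rpl30 (0.48) and Rps3a1 (0.47), with log2 fold changes in brackets, completed the 6 with the lowest p among those that were higher. The other 8 were the row of Rpl26, Rpl6, Rpl7, Rpl21, Rpl23, Rps7, Rps15a and Rps24. The 6 that were lower were Rplp0, Rps2, Rplp2, Rpl10, Rpl28 and Rpl37a.

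Rplp0 had 3557 and 2885 CPM in the Baf250A libraries against 5582 and 4099.9 in the Baf180 libraries (log2 fold change -0.59, SE 0.20, adjusted p = 0.0261, edgeR), and Rplp2 had 524 and 422 against 866 and 576 (log2 fold change -0.61, SE 0.22, adjusted p = 0.0369). Of the 14 that were higher in Baf250A knockdown, 10 belonged to the 26 members with the lowest GC content, and 1 of the 6 that were lower did. The median turned positive, to 0.12 with library totals alone, to 0.13 with the offsets and to 0.064 without Baf180 library 1. The split of calls was 27 higher and 0 lower with library totals alone and 13 higher and 20 lower without the filter on low counts. The number called was 9 without scramble library 1, 10 without scramble library 2, 4 without Baf250A library 2, 4 without Baf180 library 1 and 37 without Baf180 library 2, where the median was -0.26. Of the 20 members called, the signs of Rpl5, Rpl7, Rpl23, Rps15a, Rps24 and Rps2 turned with the offsets.

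Brd9 against Baf180 had 22 members lower and none higher in Brd9 knockdown, against 23.3% and 26.3% of all genes, with a median of -0.29. Rpsa had 2581 and 3006 CPM in the Brd9 libraries against 4659 and 4166 in the Baf180 libraries (log2 fold change -0.66, SE 0.15, adjusted p = 0.00917, edgeR). Rps2 had 2923 and 3526 CPM against 5528 and 4453 (log2 fold change -0.63, SE 0.17, adjusted p = 0.0147). In both genes the Brd9 libraries were below both Baf180 libraries. All 3 stalk proteins were among the 22, with log2 fold changes of -0.69 (Rplp0), -0.68 (Rplp1) and -0.76 (Rplp2), as were Rpl10 (-0.44), Rpl28 (-0.69), Rpl3 (-0.46), Rps14 (-0.61) and Rps19 (-0.56). The highest log2 fold change was that of Rps27a, at 253 and 242 CPM in the Brd9 libraries against 179 and 231 in the Baf180 libraries (log2 fold change 0.27, adjusted p = 0.187).

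Of these 22, 14 belonged to the 26 members with the highest GC content and 1 to the 26 with the lowest. No member was called without Brd9 library 1 or without Baf180 library 1, 10 were called without scramble library 1 or without scramble library 2, and 37 without Baf180 library 2. The median was -0.18 without Brd9 library 1 or without Baf180 library 1, and -0.43 without Brd9 library 2 or without Baf180 library 2. The count was 8, with 3 higher and 5 lower, when libraries were scaled by their totals alone, and 21, with 5 higher and 16 lower, with the offsets, under which 4 of the 22 were still called and the median was -0.066.

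The differences of the members ran along the GC content of their transcripts in each knockdown. GC content had a median of 51.6% over the members, from 41.3% to 60.8%, and of 50.5% over all genes tested. Across the 77 members, which share the same libraries and are not independent, Spearman's rho between GC content and log2 fold change against scramble was -0.51 in Brd9, -0.57 in Baf250A and 0.37 in Baf180. In Brd9 knockdown the median log2 fold change was -0.32 in the 26 members with the lowest GC content, -0.46 in the 25 in the middle and -0.57 in the 26 with the highest. In Baf250A knockdown the medians were 0.0127, -0.23 and -0.38 in the same order, and in Baf180 knockdown -0.15, -0.12 and -0.0195. All 3 medians were thus negative in Brd9 and in Baf180 knockdown, and the order along GC content was the opposite in Baf180.

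Replicates differed along GC content too. Between library 1 and library 2 of a group, rho over the members was -0.26 in Brd9, 0.63 in Baf250A, 0.56 in Baf180 and -0.46 in scramble. After the offsets rho of the fold change was 0.13 in Brd9, 0.28 in Baf250A and -0.69 in Baf180. From low to high GC content the medians were then -0.33, -0.28 and -0.31 in Brd9, -0.15, -0.10 and -0.0768 in Baf250A, and 0.13, -0.18 and -0.35 in Baf180. The Brd9 medians were thus close to each other after the offsets, while those of Baf180 were further apart than before. The offsets are drawn over all genes and also take out any true difference that runs along GC content or length. The part of GC content in these differences was not tested.

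**Figure D4:**
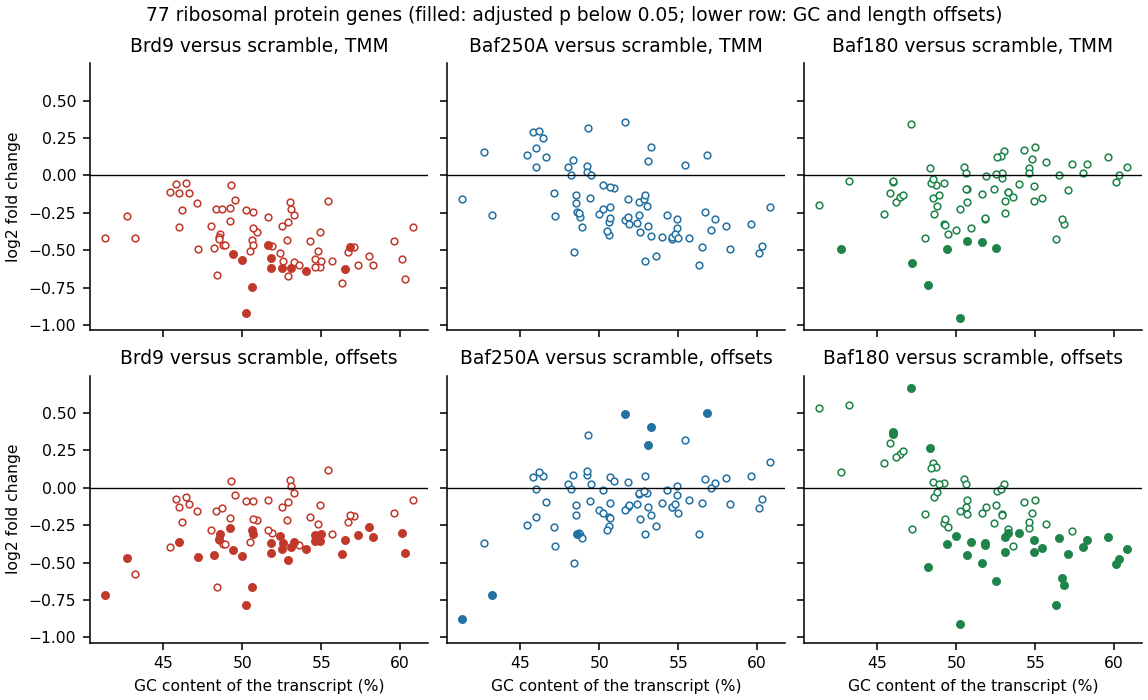
Log2 fold change against scramble on the vertical axis against the GC content of the transcript in percent on the horizontal axis, for the 77 members in the Brd9, Baf250A and Baf180 knockdowns, with TMM scaling in the upper row and GC and length offsets in the lower row; filled points are called at an adjusted p below 0.05. Before the offsets rho is -0.51, -0.57 and 0.37; after them it is 0.13, 0.28 and -0.69.

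Genes that build or use the ribosome were set beside the members. The list of ribosome biogenesis holds 49 genes. In Brd9 knockdown 12 of them fell and none rose (median -0.38), in Baf250A knockdown 14 rose and none fell (median 0.0898), and in Baf180 knockdown 25 fell and none rose (median -0.56). The background shares are those of the same comparisons above, 3.57% lower in Brd9, 15.5% higher in Baf250A and 17.0% lower in Baf180 knockdown. Nle1, a factor of large subunit assembly, had the largest fall of the list in Brd9 knockdown (log2 fold change -1.86, SE 0.25, adjusted p = 0.00261, edgeR). Nop56, a core protein of box C/D small nucleolar particles, fell in Brd9 knockdown (log2 fold change -0.71, SE 0.12, adjusted p = 0.00639) and in Baf180 knockdown (log2 fold change -0.96, SE 0.12, adjusted p = 0.000681). Npm1, the nucleolar protein nucleophosmin, rose in Baf250A knockdown (log2 fold change 0.90, SE 0.21, adjusted p = 0.0135) and fell in Baf180 knockdown (log2 fold change -1.50, SE 0.21, adjusted p = 0.00151). The biogenesis list thus had calls in opposite directions in Baf250A and Baf180 knockdown, while among the ribosomal proteins none was called in Baf250A knockdown and 8 fell in Baf180 knockdown. With the GC and length offsets 36 genes of the list fell in Brd9 knockdown (median -0.50). Then 10 rose and 1 fell in Baf250A knockdown (median 0.0996), and 32 fell in Baf180 knockdown (median -0.53). The shares of all genes were then 13.9% lower in Brd9, 17.5% higher and 18.0% lower in Baf250A, and 18.8% lower in Baf180 knockdown. The counts of the list rested on single libraries. In Brd9 knockdown 1 gene fell without scramble library 1, without scramble library 2 or without Brd9 library 1, in Baf250A knockdown 4, 2 and 4 rose without scramble library 1, scramble library 2 and Baf250A library 2, and in Baf180 knockdown 15, 17 and 16 fell without scramble library 1, scramble library 2 and Baf180 library 1.

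Of 28 chaperones, importers and partners of ribosomal proteins, 2 fell in Brd9 knockdown (Grwd1 and Bccip), 3 rose and 1 fell in Baf250A knockdown, and 12 fell in Baf180 knockdown. Rpf2, which helps to place Rpl5, Rpl11 and the 5S ribosomal RNA, had a log2 fold change of 0.67, adjusted p = 0.0393 in Baf250A knockdown, and -1.61, adjusted p = 0.00128 in Baf180 knockdown. With the GC and length offsets the highest log2 fold change of these 28 was 0.44 in Baf250A knockdown, and the lowest was -0.96 in Baf180 knockdown. Of 20 genes of ribosomal RNA transcription, 2 fell in Brd9 knockdown (Polr1b and Cd3eap), 2 rose and 1 fell in Baf250A knockdown, and 3 fell in Baf180 knockdown. For both lists the shares of all genes were 3.57% lower in Brd9, 15.5% higher and 14.0% lower in Baf250A, and 17.0% lower in Baf180 knockdown. In Brd9 knockdown neither list had a call without scramble library 1, scramble library 2 or Brd9 library 1. In Baf180 knockdown the 12 became 7 without either scramble library and 8 without Baf180 library 1, and the 3 became 0 in each of those fits.

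The mitochondrial ribosome gave a comparison with proteins that serve another ribosome. Of its 78 genes, 7 fell and none rose in Brd9 knockdown (median -0.36), 4 rose and none fell in Baf250A knockdown (median -0.14), and 9 fell and none rose in Baf180 knockdown (median -0.11). The shares of all genes were 3.57% lower in Brd9, 15.5% higher in Baf250A and 17.0% lower in Baf180 knockdown. Those of the list were thus below the shares of all genes in Baf250A and Baf180 knockdown. The 7 became 0 without scramble library 1, scramble library 2 or Brd9 library 1 and 13 and 14 without Baf180 library 1 and library 2. The 4 became 0 without either scramble library or Baf250A library 2, and the 9 became 0, 3 and 2 without scramble library 1, scramble library 2 and Baf180 library 1. Housekeeping genes, 19 in number, had medians of -0.34, -0.22 and -0.24 in the Brd9, Baf250A and Baf180 knockdowns, with 2 of 19 called lower in Brd9 knockdown. Of the 19, 2 rose and 3 fell in Baf250A knockdown, and 1 rose and 3 fell in Baf180 knockdown. Of all genes 15.5% were called higher and 14.0% lower in Baf250A knockdown, and 17.2% and 17.0% in Baf180 knockdown. The shares of the list called lower were close to these. The medians of the housekeeping genes were thus negative as well.

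Other messages with a TOP tract, 20 in number, had 3 that fell and none that rose in Brd9 knockdown (Eef2, Vim and Fau, median -0.43). The gene lists overlap, so their counts and medians are not independent of each other. Eef2 is also counted among the elongation factors below, and Fau among the related ribosomal protein genes outside the symbol rule. In Baf250A knockdown 1 rose and 2 fell (median -0.29), and in Baf180 knockdown 8 fell (median -0.15). The shares of all genes were 3.57% lower in Brd9, 15.5% higher and 14.0% lower in Baf250A, and 17.0% lower in Baf180 knockdown. With the GC and length offsets the highest log2 fold change of the 20 in Baf250A knockdown was 0.33, against 0.90 before. The lowest in Baf180 knockdown was then -0.86, against -1.50 before. Without scramble library 1, scramble library 2 or Brd9 library 1 none of the 20 was called in Brd9 knockdown, and 7 and 5 fell there without Baf180 library 1 and library 2. In Baf180 knockdown 3 fell without scramble library 1 and 4 without Baf180 library 1. Fau, a small subunit protein fused to a ubiquitin-like protein that the symbol rule leaves out, had 239.8 and 290.1 CPM with Brd9 shRNA, 413 and 371 with Baf250A shRNA and 582 and 422 with Baf180 shRNA, against 525 and 508 in scramble. It was lowest in Brd9 knockdown, where it fell (log2 fold change -0.96, SE 0.17, adjusted p = 0.0101, edgeR).

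Of 10 translation elongation factors that were tested, 1 fell in Brd9 knockdown (Eef2, log2 fold change -0.83, SE 0.21, adjusted p = 0.0386), 1 rose and 1 fell in Baf250A knockdown, and 1 rose and 3 fell in Baf180 knockdown. Of 37 initiation factors, none was called in Brd9 knockdown by edgeR (18 were lower and 0 higher at an unadjusted p below 0.05, against 13.7% and 16.7% of all genes, and DESeq2 called 13 lower), 7 rose and 3 fell in Baf250A knockdown, and 14 fell and none rose in Baf180 knockdown. Eif3a, the largest subunit of the initiation factor that binds the small ribosomal subunit, was among these 14 (log2 fold change -1.55, SE 0.21, adjusted p = 0.00114, edgeR). The shares of all genes were 3.57% lower in Brd9, 15.5% higher and 14.0% lower in Baf250A, and 17.2% higher and 17.0% lower in Baf180 knockdown. With the GC and length offsets 17 initiation factors fell in Brd9 knockdown, 3 rose and 4 fell in Baf250A, and 17 fell in Baf180 knockdown. Their lowest log2 fold change in Baf180 knockdown was then -1.04. Without scramble library 1, scramble library 2 and Baf180 library 1, the 14 became 5, 10 and 4, and no initiation factor was called in Baf250A knockdown without either scramble library or Baf250A library 2. Without either Baf180 library 7 fell in Brd9 knockdown. In Brd9 knockdown 30 of the 37 had negative log2 fold changes, with a median of -0.35.

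**Figure D5:**
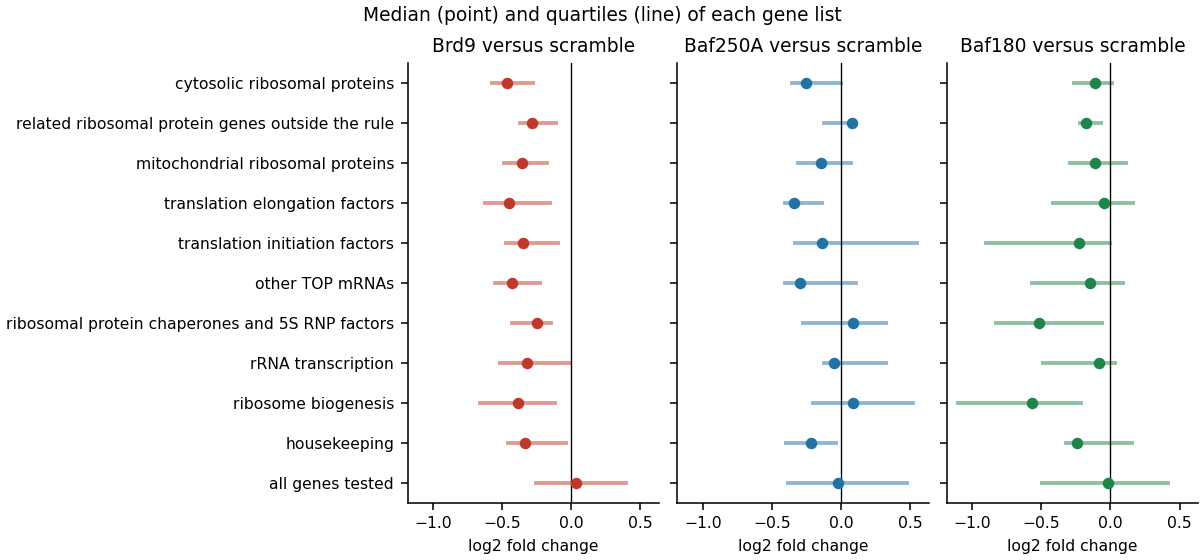
Median (point) and quartiles (line) of the log2 fold change against scramble, on the horizontal axis, for the cytosolic ribosomal proteins, 9 further gene lists and all genes tested, in the Brd9, Baf250A and Baf180 knockdowns. In the Brd9 panel the members stand at -0.46 and all genes at 0.036, and the ribosome biogenesis list stands at -0.38 in Brd9, 0.0898 in Baf250A and -0.56 in Baf180.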

How the data were processed

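RNA was sequenced from 8 libraries of C2C12 myoblasts, 2 for each of 4 shRNA groups, taken from the sample titles. The authors deposited estimated counts per gene, not normalised, and a gene length in bases, which per the file headers is the table's other value. HISAT2, Bowtie2, StringTie, Cufflinks, RSEM, DESeq2 and mm10 appear in the submitters' processing notes, without versions or the step each served. The use of strand is not stated.

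Of 24573 genes, 24479 were matched to names by gene ID, 9 by accession, and 85 kept their ID. Estimated counts were rounded to whole numbers, filtered by filterByExpr (12420 genes), scaled by TMM and fitted over all 8 libraries with 4 groups by quasi-likelihood in edgeR 4.0.16 (R 4.3.3). P-values were adjusted by Benjamini-Hochberg over all genes, and calls made below 0.05. SE was taken from the log2 fold change and the root of its F statistic. GC and length offsets were per-library loess curves (span 0.3) on the GC content of GENCODE M21 transcripts, found for 98.95% of genes tested and all 77 members, and on log2 length. Alternatives were other scalings, no filter, DESeq2 1.42.0, the 4 libraries of a comparison alone, a replicate block and each library left out. The procedure was tested on simulated counts. The libraries held 17763062 to 20400855 counts.

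Named genes were, per comparison, up to 6 called members of each direction with the lowest p, the largest rise and fall, the highest and lowest expressed, and a list of members with known roles, other members were named to complete a group of calls, and genes of the further lists were chosen after their values were seen. Some genes that this rule names are not reported here. The members and lists were chosen with earlier results of these data known.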

Additional observations from a re-analysis of the deposited data

How the results depend on the processing

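The direction of the members' median held for 5 of the 6 comparisons under every setting below for which it was computed (not with 4 libraries alone), and for Baf250A against Baf180 it turned with library totals alone (0.12), with GC and length offsets (0.13) and without Baf180 library 1 (0.064). Scaling by library totals moved the median of all genes by 0.17 in Brd9 against scramble, 0.12 in Baf250A against scramble, 0.21 in Baf250A against Baf180 and 0.26 in Brd9 against Baf180. Relative to all genes the members stood at -0.50 in Brd9 against scramble with library totals alone and with TMM, and at -0.0459 and -0.0596 in Baf250A against Baf180.

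The number of members called, and where it moved the median, depended on the setting. Shares of all genes called are given above only for the TMM fit and, against scramble, for the offsets. The counts of members under other settings have no such share beside them and do not set the members apart from all genes. Brd9 against scramble had 6 with library totals alone (median -0.30), 42 without the filter, and 34 each with offsets (median -0.31), with 4 libraries alone and with DESeq2. Baf250A against scramble had 3 with upper-quartile scaling, 15 without the filter and with 4 libraries alone, 7 with offsets (median -0.10) and 2 with DESeq2. Baf180 against scramble had 17 with library totals and 32 with offsets. Baf250A against Brd9 had 2 with upper-quartile scaling and with 4 libraries alone, 4 with library totals, 22 with offsets and 16 with DESeq2. Baf250A against Baf180 had 33 without the filter, 40 with offsets and 12 with 4 libraries alone. Brd9 against Baf180 had 11 with upper-quartile scaling, 8 with library totals (median -0.026), 14 with 4 libraries alone and 34 with DESeq2, and its median was -0.066 with offsets.

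Leaving out each library gave 0 to 26 calls and medians of -0.56 to -0.28 in Brd9 against scramble, 0 to 7 calls in Baf250A against scramble, 0 to 9 in Baf180 against scramble, 1 to 9 and medians of 0.12 to 0.41 in Baf250A against Brd9, 4 to 37 and -0.26 to 0.064 in Baf250A against Baf180, and 0 to 37 in Brd9 against Baf180. Among the members whose fold change is given for a comparison, signs turned in some of these fits in Brd9 against scramble for Rpl22 (-0.43 to 0.028), Rpl23 (-0.18 to 0.074), Rpl39 (-0.45 to 0.029) and Rps27a (-0.17 to 0.047), and in Baf250A against Brd9 for Rps27 (-0.12 to 0.15), which was also 0.0195 with RLE scaling and with DESeq2.

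Among the same members the sign turned with offsets in Brd9 against scramble for Rpl38 (0.12), Rps27 (0.050) and Rps27a (0.043), in Baf180 against scramble for Rpl5 (0.11), in Brd9 against Baf180 for Rpl13 (0.26), Rpl18 (0.020), Rpl8 (0.13), Rps10 (0.041) and Rps19 (0.16), and in Baf250A against Baf180 for Rpl23 (-0.14), Rpl5 (-0.48), Rpl7 (-0.23), Rps15a (-0.41), Rps24 (-0.10) and Rps2 (0.23). Of these, with library totals alone it turned in Brd9 against scramble for Rpl23 (0.12) and Rps27a (0.11). Other members turned too: over all 77, with offsets 4 were positive in Brd9 against scramble and 30 in Brd9 against Baf180, against 0 and 13 with TMM. The cause of these changes was not tested.

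The labels do not say that a replicate number marks a shared culture. Over all genes tested, the deviations of library 1 from its group's mean log CPM were compared between groups. The correlation was -0.47 between Brd9 and Baf250A, -0.48 between Brd9 and Baf180 and 0.46 between Baf250A and Baf180. It was weaker in the pairs with scramble, at -0.047 for Brd9, 0.12 for Baf250A and 0.019 for Baf180. With the replicate block the number called was 1 in Brd9 against scramble, 2 in Baf250A against Brd9, 10 in Baf250A against Baf180 and 11 in Brd9 against Baf180. A crossed replicate block with the Brd9 numbers exchanged, chosen after seeing the data, called 54, 28 and 20 members in Brd9, Baf250A and Baf180 against scramble, 21 in Baf250A against Brd9, 43 in Baf250A against Baf180 and 39 in Brd9 against Baf180. No share of all genes is given for either block, so these counts do not set the members apart from other genes.

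With 2 libraries a group, a member that missed the threshold is not shown to be unchanged.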

Other observations

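Genes that the transcription factor p53 induces, a list of 26 with 25 tested, had 5 that rose and none that fell in Brd9 knockdown, and its median was 0.38 on the log2 scale. Of all genes 6.45% were called higher there. Btg2, an inhibitor of proliferation, rose (log2 fold change 1.11, SE 0.20, adjusted p = 0.00902, edgeR), and so did the death receptor Fas (log2 fold change 1.39, SE 0.30, adjusted p = 0.0212), Trp53inp1, Pmaip1 and Cd80. In Baf250A knockdown 5 rose and 2 fell (median -0.0055), and in Baf180 knockdown 6 rose and 2 fell (median 0.18), while 15.5% of all genes were called higher and 14.0% lower in Baf250A knockdown and 17.2% and 17.0% in Baf180 knockdown. Cdkn1a, the cell cycle inhibitor most used as a readout of p53, rose in Baf180 knockdown (log2 fold change 0.91, SE 0.14, adjusted p = 0.00256, edgeR) and had a log2 fold change of 0.41, adjusted p = 0.0947 in Brd9 knockdown. With the GC and length offsets 12 of the list rose and 3 fell in Brd9 knockdown (median 0.40), against 14.4% and 13.9% of all genes. The 5 of Brd9 knockdown became 1 without either scramble library and 0 without Brd9 library 1.

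Of 24 regulators around Myc and mTOR that were tested, 2 rose and 1 fell in Brd9 knockdown, 5 rose and 3 fell in Baf250A knockdown, and 6 rose and 3 fell in Baf180 knockdown, to be read against the same shares of all genes and 3.57% called lower in Brd9 knockdown. Mxd4, a partner of Max that competes with Myc, rose in Brd9 knockdown (log2 fold change 1.19, SE 0.21, adjusted p = 0.00845) and in Baf180 knockdown (log2 fold change 1.87, SE 0.21, adjusted p = 0.000444). Larp1, which binds the TOP tract, fell in Baf180 knockdown (log2 fold change -0.65, SE 0.11, adjusted p = 0.00379). The paralog Rpl22l1, which can replace Rpl22, had 18.9 and 20.1 CPM in the Brd9 libraries, 26.5 and 33.3 in Baf250A and 6.78 and 13.9 in Baf180, against 17.3 and 11.0 in scramble, and it rose in Baf250A knockdown (log2 fold change 1.08, SE 0.32, adjusted p = 0.0336), a call lost without scramble library 1, scramble library 2 or Baf250A library 2. With the GC and length offsets Rpl22l1 was not called in Baf250A knockdown. Among the 6 related ribosomal protein genes tested outside the symbol rule, the highest log2 fold change was then 0.22. The paralogs Rpl3l, Rpl10l and Rpl39l, which are known from muscle or testis, had at most 1 count in any library.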
